A study of Mus musculus with 12 samples.

Results

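Recovered macrophages were compared with resting macrophages across all genes. These were 6 of the 12 arrays in the series, 3 labelled as recovery and 3 as untreated, and arrays with the same replicate number were paired. The cells were mouse bone marrow-derived macrophages, which grow out of marrow cells in a medium conditioned by L929 cells, a source of the macrophage growth factor. The mice were female C57BL/6, 6 to 8 weeks old, and differentiation took 7 days. Untreated cells had no lipopolysaccharide (LPS, a bacterial cell wall component). Recovered cells had LPS for 8 h, a rest that the sample descriptions give as 88 h and the protocol as 2 to 4 days, and LPS again for 4 h before RNA was taken. The other groups, used here only for direct comparisons with recovered cells, were acute cells (LPS once, for 4 h) and tolerant cells (LPS for 8 h, a rest of 16 h, LPS for 4 h). The labels call the replicates independent experiments and do not say whether each used other animals, so p-values measure the spread between these arrays. Recovered cells differed from untreated cells by both LPS exposures and by the time in culture, and these cannot be told apart here. Unstimulated cells of the same longer culture time were not analysed here.

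LPS is sensed by TLR4 with its co-receptors CD14 and MD-2. A pair of adaptor branches carries the signal: MyD88 leads to NF-kB and to cytokine genes, and TRIF leads to interferon beta, which acts back on the cells and turns on antiviral genes through STAT and IRF factors. Macrophages that meet LPS again soon after a first dose transcribe many of these genes less, a state called endotoxin tolerance, and the study asks how cells behave after a longer rest. ATF4 is a transcription factor of another pathway, the integrated stress response, which turns on genes for amino acid synthesis, amino acid uptake and tRNA charging when amino acids are scarce or the endoplasmic reticulum is stressed.

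All 20469 genes that passed the filter were tested. A level is the log2 of the scanner's processed intensity, scaled so that every array has the same 75th percentile, and a difference of 1 in level is a 2-fold change. Levels are compared between arrays for one gene, never between genes. Differences are recovered minus untreated, with the standard error (SE) of a limma fit with the replicate number as a block and n = 3 arrays in each group. Genes with an adjusted p (Benjamini-Hochberg) below 0.05 count as called. Limma called 10770 genes (52.6% of those tested), 5671 higher (27.7%) and 5099 lower (24.9%). Counts in the gene lists below are to be read beside these shares. Among others, the lysosomal, mitotic, BCL2 family and NRF2 lists were called at a rate near or below that of all genes. The 3 recovered arrays did not overlap with the 3 untreated arrays for 9765 genes (47.7%), of which 8853 were called. The median difference over all genes was 0.06. Measured changes were larger upward: 494 called genes were more than 8-fold higher and 127 more than 8-fold lower, and past 64-fold the counts were 69 and 2. These counts include genes dim in one group, whose fold has only a bound. Of the genes called higher 263 were dim on all untreated arrays, and of those called lower 315 on all recovered arrays. Both genes past 64-fold lower were among these, 0610040J01Rik and Bmf, at least 39.2-fold and 23.4-fold lower. The share of higher genes among the called was 52.7%. It was 57.8% with normexp background correction, and 65.5% without the filter on dim probes, where the median of all 35396 genes was 0.28. It was 40.3% after quantile normalization and 40.4% in the authors' values, where the median of all genes was -0.08 and -0.07. Small differences of bright genes are therefore given below relative to the scaling used.

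The arrays themselves were alike within groups. Over all 12 arrays between 47.8% and 55.0% of spots were well above background, arrays of a group correlated at r from 0.980 to 0.994 across genes, and 0 spots were saturated. Both arrays of replicate 3 were on the third slide, scanned on the second day, and recovered array 1 was on the second slide while untreated array 1 was on the first. Macrophage markers were bright in both groups. The level of Csf1r, the receptor for the macrophage growth factor, was 17.23, 17.18 and 17.46 on the untreated and 17.95, 17.93 and 17.79 on the recovered arrays, a rise of 0.60 whose call was lost with quantile normalization. Adgre1, a marker of mature macrophages, had levels of 17.43, 17.27 and 16.75 against 17.49, 17.34 and 16.26, with overlap. It was not called (-0.12), but it was called lower with quantile normalization (-0.39, limma adjusted p = 0.0227) and in the authors' values (-0.52, adjusted p = 0.000535), and a second probe of it was called lower. RNA came from whole cultures, so fewer cells of a kind and less RNA per cell cannot be told apart in any value.

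Short stretches upstream of genes that moved far are shown because their promoters carry the motifs of the 3 pathways named above. They are RefSeq sequences of build GRCm38.p6, each read 5′ to 3′ on the gene's own strand and lying wholly before the start site, with matches in capitals. The interferon-stimulated response element was searched as GAAA, any 2 bases and GAAA, the NF-kB motif as GGG, any 3 bases and TTCC, and TGNTGCAA is a core of the ATF4 element. Each was searched on both strands in windows from 250 bases before to 50 bases after the start. No motif contains another. The stretch of Gbp5, a guanylate-binding protein of the interferon response, is at chr3:142496744-142496803 on the plus strand, and that of Ifit1, an interferon-induced RNA-binding protein, at chr19:34640779-34640838 on the plus strand.
Gbp5: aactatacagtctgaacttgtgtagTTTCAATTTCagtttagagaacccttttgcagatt
Ifit1: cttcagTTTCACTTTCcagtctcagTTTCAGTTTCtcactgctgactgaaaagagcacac
The stretch of Ifnb1, interferon beta, is at chr4:88522876-88522935 on the minus strand, and that of Il6, interleukin 6, at chr5:30013045-30013104 on the plus strand.
Ifnb1: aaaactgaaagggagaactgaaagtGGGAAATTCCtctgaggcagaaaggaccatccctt
Il6: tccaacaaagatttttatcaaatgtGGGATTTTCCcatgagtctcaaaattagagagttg
For the ATF4 motif the stretches are those of Chac1 at chr2:119351023-119351082 on the plus strand, Trib3 at chr2:152344061-152344120 on the minus strand and Slc7a11 at chr3:50443627-50443686 on the minus strand.
Chac1: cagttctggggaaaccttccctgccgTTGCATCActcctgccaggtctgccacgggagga
Trib3: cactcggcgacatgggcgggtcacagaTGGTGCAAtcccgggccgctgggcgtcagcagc
Slc7a11: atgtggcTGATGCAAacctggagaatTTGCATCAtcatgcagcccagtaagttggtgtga

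A promoter window was given for 11029 of the tested genes. The interferon element was in 3.91% of these windows, in 16 of 28 windows (57.1%) of interferon-stimulated antiviral genes and in 9 of 10 windows of guanylate-binding proteins and GTPases. The NF-kB motif was in 7.52% of all windows, in 5 of 13 (38.5%) of chemokines and in 4 of 16 of inflammatory cytokines. TGNTGCAA was in 3.31% of all windows, in 8 of 23 (34.8%) of ATF4 response genes and in 4 of 13 (30.8%) of aminoacyl-tRNA synthetases. Split by call instead of by list, the interferon element was in 6.50% of the windows of genes called higher, 2.60% of genes called lower and 3.20% of genes not called. The shares were closer together for the NF-kB motif (7.88%, 7.66% and 7.18%) and TGNTGCAA (4.04%, 3.20% and 2.93%). These shares describe letters in short windows, not bound sites.

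Genes of secreted inflammatory proteins were among those with the largest rises. Il6 had levels of 7.84, 5.75 and 5.24 on the untreated arrays and 16.99, 16.01 and 15.89 on the recovered arrays, a rise of 10.02 ± 0.34 (SE, limma adjusted p = 3.32e-08). Its lowest recovered array was far above its highest untreated array. Ifnb1, the TRIF branch's main product, was not well above background on any untreated array and had recovered levels of 13.22, 11.87 and 11.41, so that it was at least 316-fold higher (adjusted p = 8.49e-08). Il12b, a subunit of interleukin 12 that drives T cell responses, had recovered levels of 13.14, 11.95 and 11.33 and was at least 311-fold higher (adjusted p = 4.18e-08). An "at least" fold compares the recovered mean with the untreated signal, or with the dimmest measurable signal of the array where that is higher. Tnf, an early NF-kB product, went from 12.78, 12.90 and 12.58 to 17.61, 17.20 and 17.85, a rise of 4.80 ± 0.19. The Il6 probe lies on chromosome 5 at 30346367 to 30346426 and the Ifnb1 probe on chromosome 4 at 88168023 to 88168082, both on mm9, the build of the array's annotation.

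Of 22 inflammatory cytokines tested 21 rose, with a list median of 4.72 beside 0.06 for all genes. Ifnb1 and Il12b, dim on all untreated arrays, passed the filter only through groups where they were high. This holds for any listed gene dim on all untreated arrays, so the counts and medians of such lists lean upward by selection. Without the filter on dim probes 19 cytokines were called higher (median 4.24), and with normexp background correction the median was 3.41. Il1b, a pyrogenic cytokine, rose by 7.97 ± 0.36 and Tnfsf10, the death ligand TRAIL, by 7.78 ± 0.24. The smallest called rises were those of Ebi3, a subunit of interleukin 27, by 0.34 and of Il10, the main anti-inflammatory cytokine, by 0.60 ± 0.20. Il10 had levels of 9.87, 9.05 and 8.43 against 10.09, 9.30 and 9.77, so its groups overlapped, and its call was lost without the replicate block and without array 3 of either group. The call of Ebi3 was lost without array 2 or array 3 of either group, and its difference was -0.02 with the authors' values. Of 20 chemokines 18 rose, with a median of 3.89. Cxcl10, which draws activated T cells, rose from 8.66, 8.76 and 9.38 to 19.17, 18.88 and 18.63 (9.96 ± 0.23), Ccl5 by 8.55 ± 0.24 and the neutrophil chemokine Cxcl1 by 8.14 ± 0.19. Ccl22, Ccl24 and Cxcl13 did not pass the filter on dim probes.

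Growth factors went both ways. Of 17 growth and matrix factors 9 rose and 3 fell (median 0.47), and 5 rose without the block. Thbs1, thrombospondin, rose by 4.66 ± 0.34, Inhba, the activin subunit, by 4.41 ± 0.19 and Vegfc, which acts on lymphatic vessels, by 3.46 ± 0.20. The platelet-derived growth factor genes Pdgfb and Pdgfa fell by 2.01 (SE 0.25) and 0.91 (SE 0.19), and Vegfa, which acts on blood vessels, fell by 0.91 (SE 0.20). Of 18 matrix proteases and inhibitors 12 rose and 3 fell (median 2.35). Adamts4, which cleaves aggrecan, was dim on all untreated arrays and at least 173-fold higher in recovered cells. Mmp9, gelatinase B, fell by 2.19 (SE 0.43), from 9.98, 10.59 and 10.37 to 9.42, 7.15 and 7.80. Edn1, the vasoconstrictor endothelin, was at least 257-fold higher, and Lhx2, a LIM-homeobox transcription factor, at least 414-fold higher.

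**Figure D1:**
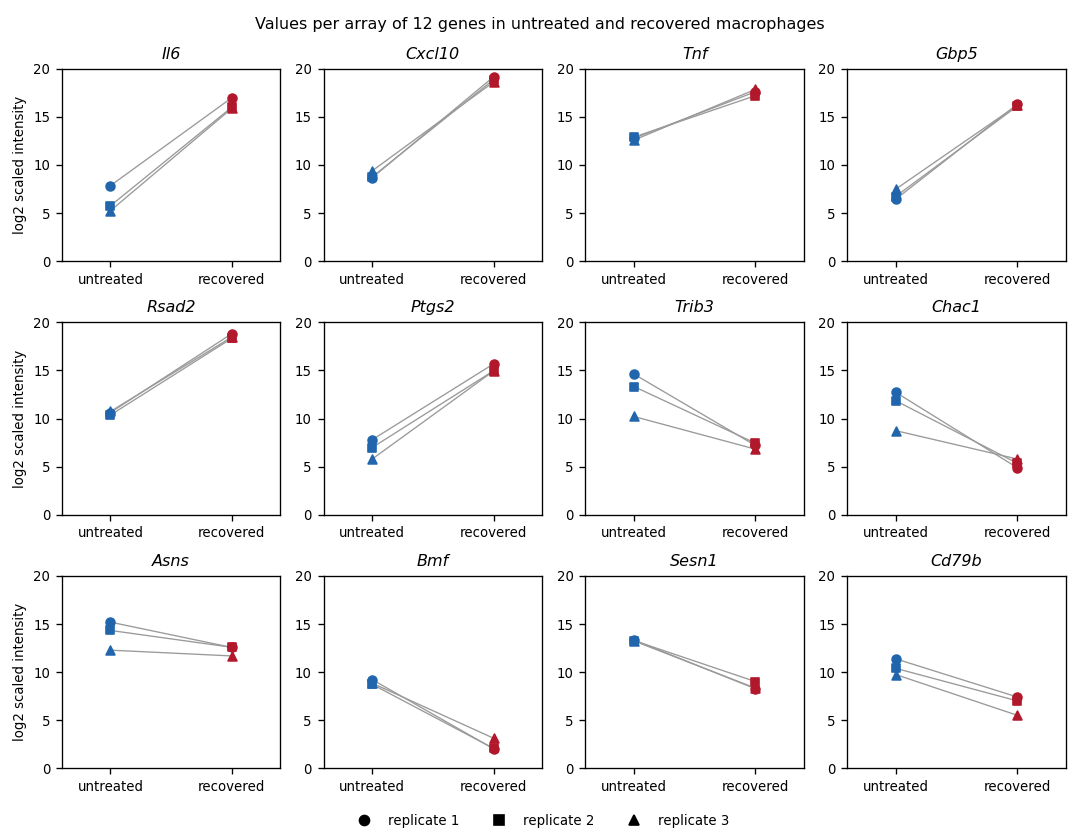
Levels (log2 scaled intensity, vertical axis) of 12 genes on the 3 untreated and 3 recovered arrays, with grey lines joining arrays of the same replicate number. Il6, Cxcl10, Tnf, Gbp5, Rsad2 and Ptgs2 lie higher on all recovered arrays, and Trib3, Chac1, Bmf, Sesn1 and Cd79b lie lower. Trib3, Chac1 and Asns spread widely over the untreated arrays, with untreated array 3 lowest.

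Interferon-stimulated genes rose almost without exception. Of 37 antiviral genes 36 rose, with a median of 3.45, and the remaining one, Ifitm1, differed by 0.62 (adjusted p = 0.131). Rsad2, viperin, rose from 10.62, 10.36 and 10.73 to 18.83, 18.35 and 18.48 (7.98 ± 0.17, adjusted p = 2.56e-09), Mx1, a GTPase that blocks viruses, by 7.84 ± 0.17 and Cmpk2, a mitochondrial nucleotide kinase, by 7.77 ± 0.14. Of 18 guanylate-binding proteins and GTPases 17 rose (median 5.06). Gbp5 rose from 6.43, 6.72 and 7.47 to 16.29, 16.10 and 16.20 (9.32 ± 0.21), and Gbp4 was at least 184-fold higher. Gbp8 was the one that fell, at least 2.09-fold, from 6.94, 5.23 and 4.21 to 4.22, 3.39 and 2.27, and this call was lost without the block. Its recovered arrays were not well above background. Members of this family, like Ifit3 and Ifit3b or Tgtp1 and Tgtp2, are close in sequence, and probes may bind RNA of more than one of them.

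Among the factors upstream of these genes most rose. Of 23 interferon regulatory factors, STATs and their receptors 16 rose and 3 fell (median 0.86). Irf7, which amplifies interferon production, rose by 4.40 ± 0.12 and Irf1 by 4.14 ± 0.12, while Irf8 (0.30, but -0.11 with quantile normalization) and Irf3 (-0.21) were not called. Irf3 was called lower with quantile normalization (-0.57, limma adjusted p = 0.000387) and in the authors' values (-0.48). The receptor chain genes Ifnar1 and Ifngr2 fell by 0.38 and 0.42. The third was Stat6, by 0.29. Without the block limma called none of the 3 lower (16 higher became 14). The mean of the Ifnar1 probes was higher by 0.37, its call was lost without recovered array 2, and that of Ifngr2 without untreated array 1 or 2 or recovered array 1 or 3. Of 24 TLR signalling proteins 15 rose and 3 fell (median 0.87). The NF-kB subunit genes Rel, Nfkb2 and Nfkb1 rose by 3.31 ± 0.18, 3.06 ± 0.10 and 2.72 ± 0.13, the adaptor gene Myd88 by 1.76 ± 0.10, and Tab1, an activator of the kinase TAK1, fell by 1.53 (SE 0.10). The TRIF gene itself, Ticam1, differed by -0.39 and was not called (adjusted p = 0.0794), but it was called lower in 7 of 20 other settings, among them quantile normalization (-0.47) and without array 3 of either group (-0.59 for untreated).

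Feedback inhibitors rose as well. Of 25 tested 18 rose and 5 fell (median 1.23). Socs1 and Socs3, which block cytokine receptor signalling, rose by 5.99 ± 0.13 and 5.35 ± 0.12, and Tnfaip3, the ubiquitin-editing enzyme A20, by 3.21 ± 0.14. Irak3, known for its part in tolerance, rose by 0.64, a call lost without untreated array 3, with quantile normalization and in the authors' values. Trib1 fell by 0.70 and the deubiquitinase gene Otud7b by 1.01. Probes of Cyld, another deubiquitinase, were called in opposite directions.

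Sensors and receptors had smaller but mostly upward differences. Of 14 Toll-like receptors and co-receptors 11 rose and 1 fell (median 0.94). Tlr3, the sensor of double-stranded RNA, rose from 6.26, 6.04 and 5.97 to 10.26, 9.56 and 9.67 (3.74 ± 0.12), Tlr2 by 2.42 ± 0.10 and the LPS co-receptor gene Cd14 by 1.97 ± 0.11. Tlr4 itself rose by 0.37 ± 0.13, from 11.26, 11.00 and 10.79 to 11.63, 11.38 and 11.14, with overlap between the groups. Its call was lost in 14 of 20 other settings. These were among them quantile normalization, the authors' values, no replicate block, no filter on dim probes, and each setting that left out an array except untreated array 3. Of 21 inflammasome and cell death genes 17 rose and 2 fell (median 1.58). Nlrp3 rose by 5.08 ± 0.19 and Nod2 by 4.31 ± 0.10, whereas the sensors Nlrp1b and Nlrc4 fell by 2.02 (SE 0.33) and 0.53 (SE 0.14).

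Scavenger, Fc and chemoattractant receptors were split. Of 26 scavenger and lectin receptors 14 rose and 5 fell (median 0.56), and with quantile normalization 11 rose and 7 fell (median 0.25). Olr1, the receptor for oxidised LDL, was dim on all untreated arrays and at least 22.9-fold higher, Clec4e, which senses mycobacterial glycolipid, rose by 4.98 ± 0.22 and the scavenger receptor gene Msr1 from 11.02, 11.38 and 11.08 to 14.10, 14.03 and 13.91 (2.85 ± 0.12). Cd5l, a secreted macrophage protein, fell by 1.38 (SE 0.19). Of 21 Fc and TREM family receptors 11 rose and 5 fell (median 0.56). The inhibitory receptors Cd300a and Fcgr2b rose by 3.25 ± 0.35 and 3.21 ± 0.21, and Trem1, which amplifies inflammation, fell by 1.38 (SE 0.14).

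Among 17 chemoattractant receptors 9 rose and 3 fell (median 1.09). Ccrl2, a receptor that presents chemerin, rose by 4.74 ± 0.22. Cxcr4, which holds cells in the marrow, fell from 9.65, 9.81 and 9.65 to 5.79, 5.83 and 5.90 (a fall of 3.86, SE 0.30), and S1pr1, which guides exit from tissues, fell by 2.68 (SE 0.29). The untreated and recovered arrays of Cxcr4 were tight and did not overlap. Of 13 purinergic receptors and enzymes 6 rose and 4 fell, with a median of 0.33 that was -0.07 with quantile normalization. Adora2a, the adenosine receptor that dampens inflammation, rose from 6.98, 6.23 and 5.73 to 12.05, 11.34 and 11.97 (5.47 ± 0.24), while P2rx7, the ATP-gated channel upstream of NLRP3, fell by 1.18 (SE 0.13) and P2ry6 by 1.41 (SE 0.16).

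Complement genes rose in 11 of 16 cases and fell in 1 (median 0.72). Cfb, of the alternative pathway, rose by 5.13 ± 0.22 and C3 by 3.24 ± 0.13, and the 3 C1q chains C1qa, C1qb and C1qc by 1.02, 0.89 and 0.74. The gene that fell was Itgam, a complement receptor chain, but its probes disagreed and the mean of its probes was higher by 0.17.

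Antigen presentation rose on the class I side. All 20 MHC class I presentation genes tested were called higher (median 1.30). Tap1, the peptide transporter, rose by 3.58 ± 0.13, Nlrc5, the activator of class I genes, by 3.40 ± 0.13 and B2m by 0.83 ± 0.10. Of 13 MHC class II genes 8 rose (median 0.83) and 4 without the block, among them H2-Ab1 by 1.32 ± 0.21, from 12.90, 12.46 and 11.30 to 13.91, 13.86 and 12.84, whose call was lost without the block. Of 17 costimulatory and checkpoint ligands 9 rose and 4 fell. Cd40 rose from 9.11, 8.74 and 8.24 to 15.81, 15.41 and 15.41 (6.84 ± 0.15) and Cd274, PD-L1, by 3.01 ± 0.22. Vsir, the checkpoint protein VISTA, fell by 1.17 (SE 0.15). Cd80 fell by 1.38 (SE 0.09) by its brightest probe, but the mean of its probes was higher by 0.36. Probes of the class I genes may bind several of them.

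Effector enzymes rose strongly where they rose. Of 20 antimicrobial effectors 13 rose (median 1.73). Ptgs2, the inducible cyclooxygenase, rose from 7.80, 6.98 and 5.78 to 15.69, 14.97 and 14.94 (8.35 ± 0.23) and Acod1, which makes itaconate, by 6.47 ± 0.21. Nos2, the inducible nitric oxide synthase, rose by 4.86 ± 0.28, its arginine transporter gene Slc7a2 by 7.01 ± 0.24 and its cofactor enzyme gene Gch1 by 3.00 ± 0.11. Arg1, the competing arginase, did not pass the filter on dim probes, nor did Retnla or Cd163. Of the 12 alternative activation markers that passed, of 20 listed, 8 rose and 2 fell. Tgm2, transglutaminase, rose by 2.50 ± 0.12 and Mrc1, the mannose receptor, by 1.04 ± 0.16, while the transcription factor genes Egr2 and Pparg fell by 2.60 (SE 0.25) and 2.04 (SE 0.16). Since 8 listed genes were too dim in every group, these counts describe the brighter members.

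In eicosanoid synthesis, Ptgs2 stood apart: of 16 prostaglandin and leukotriene genes 4 rose and 6 fell (median -0.16). Alox5, the first enzyme of leukotriene synthesis, fell by 1.48 (SE 0.19), a call lost without the block, the constitutive cyclooxygenase gene Ptgs1 by 0.90, a call lost without array 1 of either group, and the prostaglandin receptor gene Ptger4 by 1.46 (SE 0.23).

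**Figure D2:**
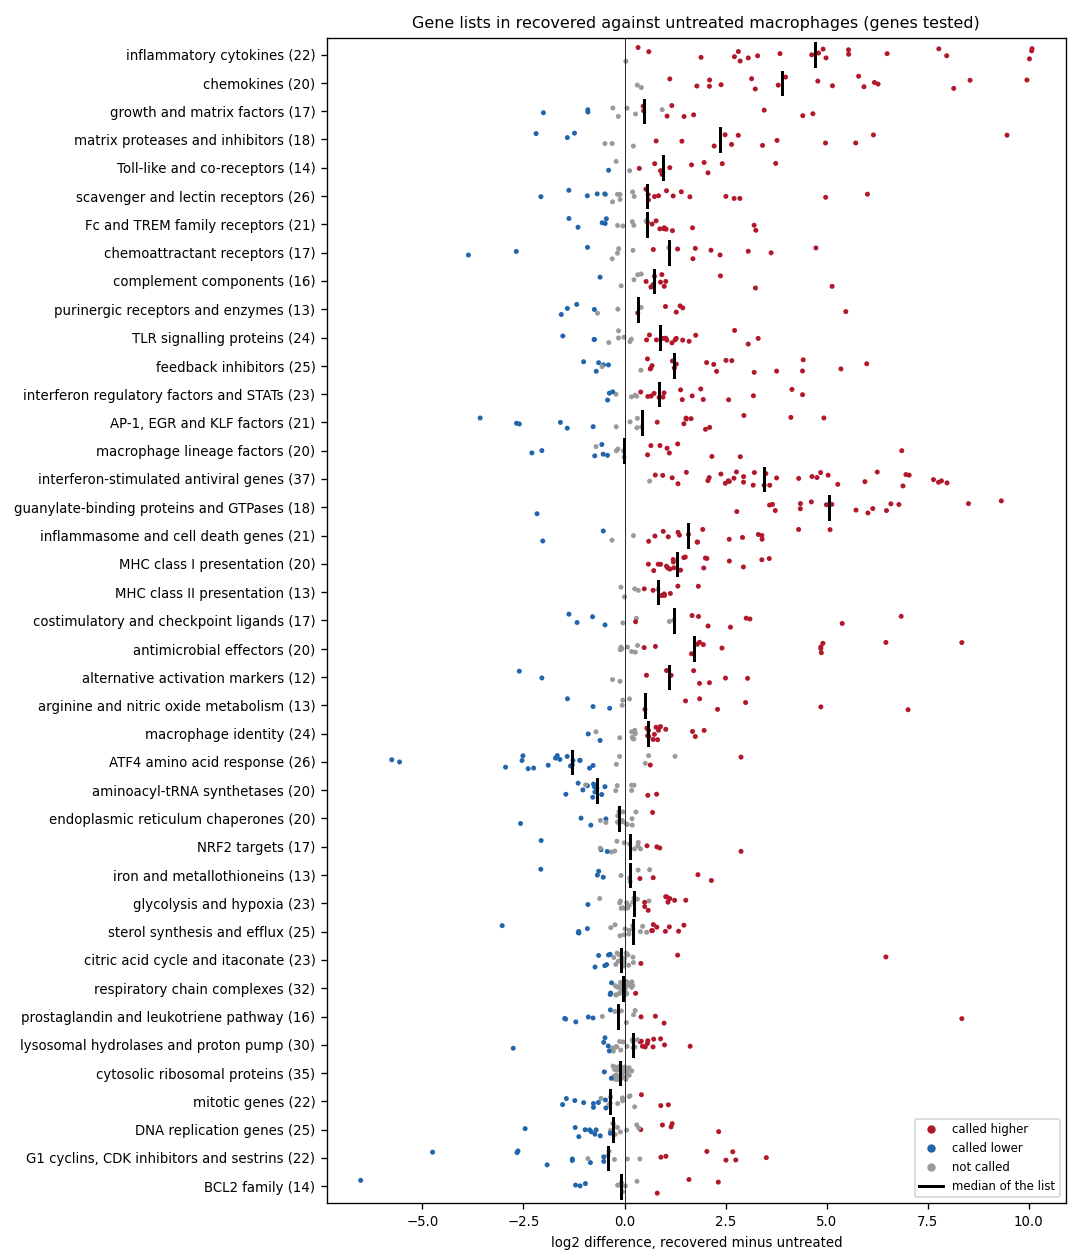
Differences (log2, recovered minus untreated, horizontal axis) of all tested members of the gene lists, 1 point per gene and 1 row per list with the number of genes tested in brackets. Points are red where limma called the gene higher, blue where lower and grey where it was not called, and the bar is the list's median. Cytokines, chemokines and interferon-induced genes reach furthest to the right, and the ATF4 response and tRNA synthetases lie mostly to the left of 0.

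Transcription factors that shape macrophages moved in both directions. Of 20 lineage factors 9 rose and 6 fell (median -0.02), and 7 rose and 3 fell without the block. Gfi1, a repressor, was dim on all untreated arrays and at least 33.1-fold higher, and the related factors Tfec and Mitf rose by 2.86 ± 0.20 and 2.16 ± 0.14. Cebpa, of the myeloid lineage, fell from 10.03, 10.52 and 10.90 to 7.65, 8.75 and 8.17 (a fall of 2.29, SE 0.19), and Tfeb, the regulator of lysosomal genes, fell by 2.75 (SE 0.20). Spi1, which encodes PU.1, rose by 0.57 ± 0.14. Of 21 AP-1, EGR and KLF factors 10 rose and 6 fell. Batf2 rose by 4.93 ± 0.14 and its relative Batf3 fell by 3.57 (SE 0.22), from 11.93, 11.35 and 10.99 to 8.15, 7.79 and 7.60. Of 24 macrophage identity genes 14 rose and 2 fell (median 0.58), and with quantile normalization 10 rose and 4 fell (median 0.28).

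Genes of the ATF4 response mostly fell. Of 26 ATF4 response genes 19 fell and 2 rose, with a median of -1.31. Trib3, a pseudokinase induced by stress, had levels of 14.63, 13.33 and 10.21 on the untreated and 7.21, 7.45 and 6.82 on the recovered arrays, a fall of 5.57 on the log2 scale (SE 0.73, adjusted p = 0.000193). Chac1, which degrades glutathione, went from 12.74, 11.86 and 8.75 to 4.91, 5.37 and 5.80, a fall of 5.76 (SE 0.87, adjusted p = 0.00044). Neither gene's groups overlapped, and in both the untreated arrays lay far apart while the recovered arrays lay close together. Their probes are both on chromosome 2 of mm9, Trib3 at 152163161 to 152163220 and Chac1 at 119179990 to 119180049. Ddit4, an inhibitor of mTORC1, fell by 2.94 (SE 0.35).

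The fall covered several steps of amino acid supply. Among biosynthetic enzymes, Asns, asparagine synthetase, fell by 1.67 (SE 0.31), from 15.21, 14.34 and 12.29 to 12.57, 12.58 and 11.69, a call lost without the block. Phgdh, the first enzyme of serine synthesis, fell by 2.25 (SE 0.53), Aldh18a1, of proline synthesis, by 2.38 (SE 0.35) and Shmt2, of mitochondrial one-carbon metabolism, by 1.60. Among transporters, Slc7a5, which imports large neutral amino acids, fell by 2.51 (SE 0.55) and the glycine transporter gene Slc6a9 by 2.54 (SE 0.46). The calls of Phgdh and Slc7a5 were lost without replicate 1 in all groups. That of Phgdh was also lost without replicate 2 in all groups, and that of Slc7a5 without the block. Atf4 itself fell by 1.11 (SE 0.26), from 16.68, 16.23 and 15.08 to 14.83, 15.06 and 14.76, and Ddit3, which encodes CHOP, by 1.34 (SE 0.28), both calls lost without replicate 1 or replicate 2 in all groups. Slc7a11, the cystine transporter, whose stretch shown above holds 2 matches of the ATF4 motif, rose instead, from 7.82, 8.06 and 6.47 to 10.21, 10.40 and 10.40 (2.88 ± 0.34), and its partner chain gene Slc3a2 rose by 0.64 ± 0.16.

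The size of this fall differed between the pairs. The median of the 26 genes was -2.07 in pair 1, -1.30 in pair 2 and -0.55 in pair 3, although 18 of them were lower in every pair. Untreated array 3 was the lowest of the untreated arrays for all 26 genes, and the median SD of a gene was 0.90 over the untreated and 0.29 over the recovered arrays. Array 3 of each group was scanned on the second day and was another experiment, and the part of either was not tested. Between arrays on one slide, Trib3 differed by -6.01 on the second and by -3.39 on the third slide. Leaving out arrays gave between 13 and 20 genes lower and a median between -1.65 and -0.99. The strongest was without replicate 3 in any group (20 lower, 1 higher) and the weakest without replicate 1 (13 lower, 5 higher). Without the replicate block it had 15 lower and 2 higher.

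**Figure D3:**
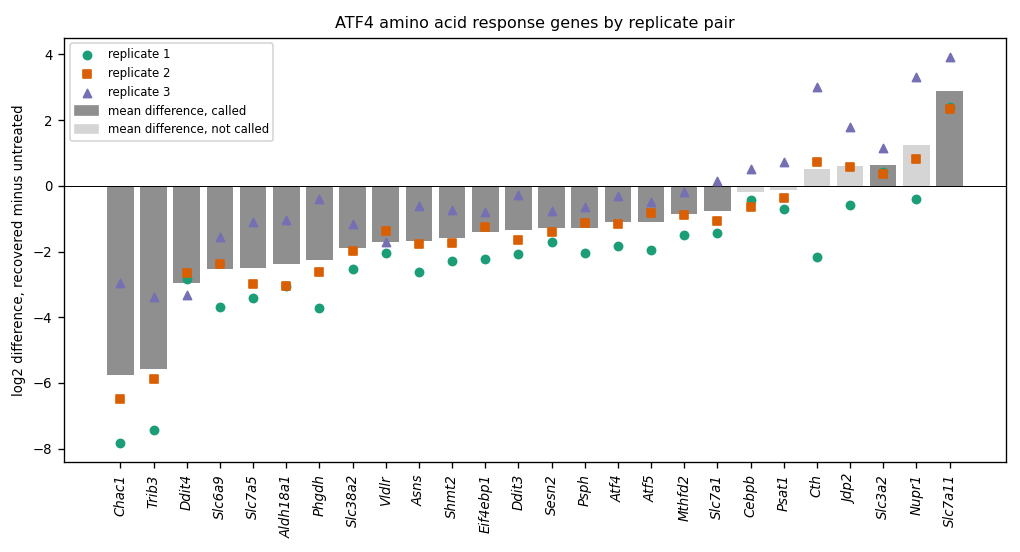
Differences (log2, recovered minus untreated, vertical axis) of the 26 tested ATF4 response genes. Bars show the mean difference, dark where called, and symbols the difference in each of the 3 replicate pairs. The medians over the genes are -2.07, -1.30 and -0.55 in pairs 1, 2 and 3, and Slc7a11 is higher in every pair.

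Aminoacyl-tRNA synthetases, which charge tRNAs and are partly under ATF4, fell in 12 of 20 cases and rose in 2 (median -0.69). Sars, for serine, fell by 1.45 (SE 0.19) and Mars1, for methionine, by 1.15 (SE 0.23), while Rars and Kars, for arginine and lysine, rose by 0.79 ± 0.22 and 0.58 ± 0.11. The call of Rars was lost without array 3 of either group and that of Kars with quantile normalization. Without the block 6 of them fell, and leaving out arrays gave 5 to 13 (median -0.82 to -0.43), the fewest without replicate 1 in any group, 6 without replicate 2 and 7 without recovered array 1. Chaperones of the endoplasmic reticulum, another stress target, mostly stayed uncalled, with 1 of 20 higher and 4 lower (median -0.13, and 7 lower with a median of -0.44 with quantile normalization). Herpud1, of the degradation machinery, fell from 14.71, 14.06 and 13.25 to 11.11, 11.59 and 11.61 (a fall of 2.57, SE 0.41). Hspa5, the chaperone BiP, rose by 0.69 ± 0.19. Its call was lost without the block, without untreated array 2, without recovered array 3, with quantile normalization and in the authors' values. Of 17 NRF2 targets 4 rose and 3 fell (median 0.13), and with quantile normalization 3 rose and 6 fell (median -0.17). Osgin1 fell by 2.06 (SE 0.16).

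Calls among housekeeping genes depended on the scaling. Limma called 2 of 35 cytosolic ribosomal protein genes, Rpl3 and Rpl22, both lower, and the list's median was -0.11. Both calls were lost without untreated array 1 or recovered array 1 or 2, that of Rpl3 also without untreated array 2 and that of Rpl22 also without untreated array 3. Of 32 respiratory chain genes 1 rose and 3 fell (median -0.03), and of 23 citric acid cycle genes 3 rose and 6 fell, with Acod1 at the top and Idh2, isocitrate dehydrogenase, at the bottom with a fall of 0.73 (SE 0.12). With quantile normalization 32 of the 35 ribosomal and 24 of the 32 respiratory genes were called lower, with medians of -0.46 and -0.40, and in the authors' values 33 and 21. Of the citric acid cycle genes 14 were called lower with quantile normalization and 15 in the authors' values, with medians of -0.35 and -0.39 in place of -0.09. The level of Actb was higher by 0.35 ± 0.12, a call lost without untreated array 1 or 2 or recovered array 1 or 3, and the difference was -0.03 with quantile normalization, and that of Gapdh differed by -0.04 (adjusted p = 0.771) but was called lower, by -0.37, both with quantile normalization (adjusted p = 0.00564) and in the authors' values.

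Among metabolic genes, 9 of 23 glycolysis and hypoxia genes rose and 1 fell (median 0.23), but with quantile normalization 7 rose and 8 fell (median -0.01), and in the authors' values 7 and 7. Slc16a3, the lactate exporter, rose by 1.51 ± 0.15 and the glucose transporter gene Slc2a1 by 1.24 ± 0.19, the latter call lost without the block. Of 25 sterol genes 8 rose and 5 fell, with a median of 0.20 that was -0.07 with quantile normalization. The synthesis gene Idi1 rose by 1.34 ± 0.19, and the cholesterol exporters Abcg1 and Abca1 fell, Abcg1 by 3.03 (SE 0.12) and Abca1 by 1.14 (SE 0.20). Nr1h3, the LXR alpha receptor gene known to drive both exporters, rose by 1.11 ± 0.20. Slc40a1, ferroportin, the iron exporter, fell by 2.07 (SE 0.31), and the iron importer gene Slc39a14 rose by 2.15 ± 0.21. Of 30 lysosomal genes 11 rose, 5 fell and 14 were not called (median 0.21), near the rate of all genes, of which 52.6% were called. The split turned to 5 higher and 12 lower with quantile normalization (median -0.12) and in the authors' values.

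Growth regulators went both ways. Sesn1, a sestrin that restrains mTORC1, went from 13.35, 13.29 and 13.25 to 8.28, 9.03 and 8.35, a fall of 4.75 (SE 0.20, adjusted p = 1.29e-07), while Sesn3 rose by 2.04 ± 0.09. Among CDK inhibitors Cdkn1a, p21, rose by 2.68 ± 0.13, and Cdkn1c and Cdkn1b, p57 and p27, fell by 2.66 (SE 0.23) and 1.92 (SE 0.24). The cyclin gene Ccnd2 rose by 3.51 ± 0.22 and Ccne1 by 2.33 ± 0.16, and the kinase genes Cdk2 and Cdk4 fell by 1.29 (SE 0.17) and 0.84 (SE 0.11). Of 22 mitotic genes 3 rose and 9 fell (median -0.37), and of 25 DNA replication genes 5 rose and 10 fell (median -0.29). Mki67, a marker of cycling cells, rose by 1.08 ± 0.12, and Cdc6, which loads the replicative helicase, fell by 2.46 (SE 0.34). Without replicate 3, 4 mitotic and 7 replication genes fell.

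Cell death regulators and several genes of no list had large falls too. Bmf, a BCL2 family member that promotes cell death, had levels of 9.23, 8.74 and 8.86 on untreated arrays and was not well above background on any recovered array, so it was at least 23.4-fold lower (adjusted p = 1.22e-07). Of its family of 14, 3 rose and 4 fell (8 with quantile normalization and 7 in the authors' values), including Bcl2 and Bcl2l1, which protect cells, by 1.10 and 1.21, while the related Bcl2a1d rose by 2.32 ± 0.18. The largest falls among reference genes also held 0610040J01Rik, at least 39.2-fold lower, Asb2, a ubiquitin ligase subunit, by 5.53 (SE 0.25), Fam214a, at least 34.0-fold lower, and Ascl2, a basic helix-loop-helix factor, by 4.93 (SE 0.29). Camkk1, a calcium-dependent kinase, was at least 8.61-fold lower, 1700003M07Rik fell by 4.59 (SE 0.21) and Sh2d1b1, an adaptor of immune receptors, by 4.98 (SE 0.30). Raver2, an RNA-binding protein, fell by 5.95 (SE 0.62) by its brightest probe, but its 2 probes were called in opposite directions. On the rising side, Ifi214, an interferon-inducible gene of the PYHIN family, was at least 62.6-fold higher.

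Markers of other cell types were mostly at background. Of 14 lymphocyte markers 6 passed the filter, and Ms4a1 and Cd79a did not. The log2 of the summed intensities (before log2) of those that passed was 13.29 to 13.42 over untreated and 13.26 to 13.43 over recovered arrays. Bright probes weigh most in such sums, so a steady sum can hide a change in a dimmer marker. Cd79b, a B cell receptor chain, was the one called, from 11.39, 10.40 and 9.76 to 7.43, 7.02 and 5.53 (a fall of 3.86, SE 0.17). Of 12 neutrophil markers 4 passed, without Ly6g and Mpo, and Camp and S100a8 were called higher, Camp by 1.66. Of 10 dendritic cell markers 5 passed, without Flt3 and Xcr1: the factor gene Zbtb46 rose by 5.34 ± 0.16 and the actin-bundling gene Fscn1 by 5.15 ± 0.35, and Batf3 fell as above. The log2 of the summed intensities of the dendritic cell markers that passed was 16.15 to 16.84 in untreated and 16.52 to 16.66 in recovered cells.

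Of 10 mast cell, basophil and eosinophil markers 3 passed, without Cpa3, Fcer1a or Mcpt8. Hdc, the histamine-forming enzyme gene, was dim on all untreated arrays and at least 183-fold higher, and Kit, the stem cell factor receptor, fell by 2.26 (SE 0.24). Of 10 stromal markers 5 passed, among them Pdgfrb and Fbn1, which were well above background on no untreated array, and Dcn on 2 of the 3, so that these entered through the groups where they were high and their number is not read as a result. The growth factor receptor gene Pdgfrb was at least 23.6-fold higher, the fibrillin gene Fbn1 at least 4.80-fold, and Dcn, Sparc and Col1a2 rose by 1.19, 0.80 and 0.65, while Col1a1, Col3a1 and Pdgfra did not pass. The log2 of the summed intensities of the 5 that passed was 7.06 to 7.61 over untreated and 9.03 to 9.70 over recovered arrays. This sum leans upward by the same selection and is not read as a result either. Without the block 3 of the 5 were called. The call of Col1a2 was lost when any of the 6 arrays was left out. Of erythroid and platelet markers, 1 of 5 was called, Pf4, a chemokine also made by macrophages, higher by 2.39 ± 0.18. The part of other cells in these differences was not tested.

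Recovered cells were also compared directly with the other LPS-treated groups, which share the recovered arrays with the comparison above. Limma called 2199 genes (10.7%) between recovered and acute cells and 9233 (45.1%) between recovered and tolerant cells. The first count fell to 418 without the replicate block and to 136 when replicate 2 was left out of every group, 429 when replicate 1 was, and 979 without recovered array 1, so calls against acute cells are less firm. Antiviral genes stood above tolerant cells in 33 of 37 cases (median 1.07) and above acute cells in 2 (median -0.04). Mitotic genes stood above tolerant cells in 19 of 22 cases (median 0.97) and above acute cells in 1. Endoplasmic reticulum chaperones were lower than in tolerant cells in 12 of 20 cases (median -0.55). ATF4 response genes were lower than in acute cells in 12 of 26 cases (median -0.93), and against tolerant cells 6 were higher and 3 lower (median 0.03).

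Several genes differed from all 3 other groups. Folr2, a folate receptor of resident macrophages, was at 15.02, 15.06 and 14.79 on recovered arrays and at 12.04, 11.99 and 13.32 on untreated ones, higher by 2.51 ± 0.27 than in untreated, 2.14 than in acute (limma adjusted p = 0.00241) and 2.29 than in tolerant cells (adjusted p = 0.00027). Mrc1 was higher by 1.04 ± 0.16 than in untreated, 0.87 than in acute (adjusted p = 0.0124) and 2.82 than in tolerant cells (adjusted p = 1.64e-05). Pf4 was higher than in acute cells by 2.00 (adjusted p = 0.00078) and than in tolerant cells by 1.23 (adjusted p = 0.000817). Cd79b was lower than in acute and tolerant cells, with differences of -2.78 and -2.41 (adjusted p = 0.000222 and 2.24e-05). Ifnb1 was 1.71 below acute cells on the log2 scale (difference -1.71, adjusted p = 0.0283) and 3.37 above tolerant cells, while Tnf was 2.08 above tolerant cells and differed from acute cells by 0.05 (adjusted p = 0.888).

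**Figure D4:**
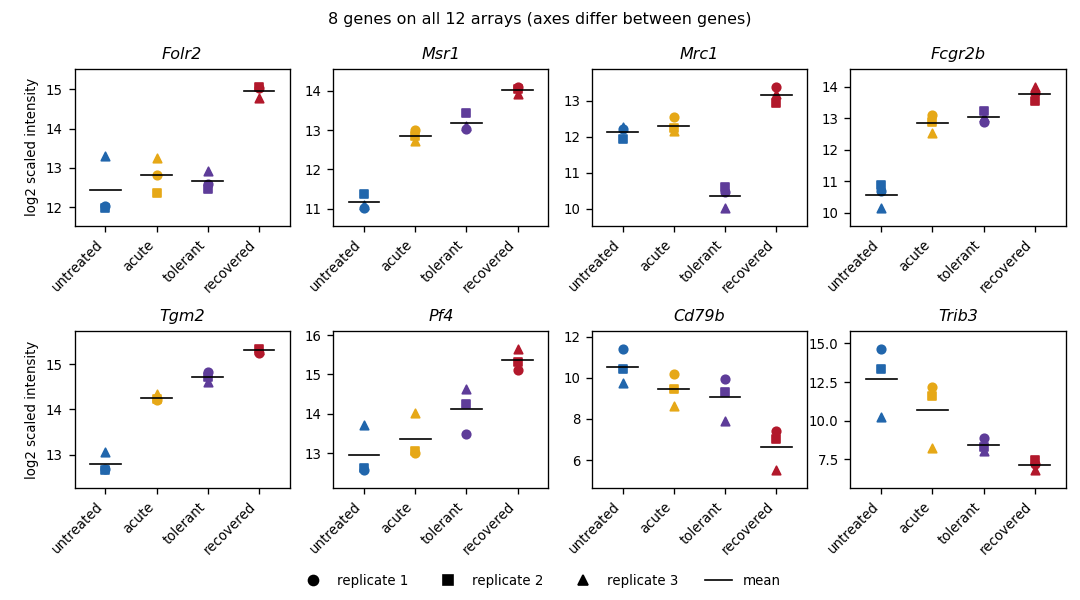
Levels (log2 scaled intensity, vertical axis, a scale of its own for each gene) of 8 genes on all 12 arrays, with symbols for the replicate number and a line at the mean of each group. Folr2, Msr1, Mrc1, Fcgr2b, Tgm2 and Pf4 have their highest mean in recovered cells, and Cd79b and Trib3 their lowest.

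The genes least alike between pairs were described apart. Stard3, a lipid transfer protein, had recovered levels of 18.37, 14.46 and 14.74 against 13.28, 13.16 and 13.36, a rise of 2.59 ± 0.71 with recovered array 1 far above the others. Its call was lost without untreated array 1. Dclre1b, a nuclease, was at 5.33, 8.40 and 5.64 on untreated and 4.63, 4.03 and 4.92 on recovered arrays, a fall of 1.93 (SE 0.66) in which untreated array 2 stood apart. Its call was lost without that array and without recovered array 1 or 2. The pair SD was also large for 3 transcripts without a reference gene name and for Chac1, of the ATF4 response. Chac1 had a pair SD of 2.525, with differences of -7.83, -6.50 and -2.95 in pairs 1, 2 and 3.

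Probes for long intergenic RNA loci, 2763 in all, were called in 45.1% of cases, 933 higher and 314 lower (median 0.29), against 3840 higher and 4207 lower of 14266 reference genes (median -0.01). With dim probes kept, the median of all 35396 genes was 0.28. The part of probe intensity and scaling in this upward lean was not tested.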

How the data were processed

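RNA from mouse macrophages was hybridised to 12 Agilent 1-colour arrays, 3 per group. Per the file headers, the authors' scanner files were made with Agilent Feature Extraction 10.7.3.1 and hold the intensity of 62976 spots. The authors' deposited matrix holds log2 values whose columns all have a median of 5.34, which the submitters' processing notes link to limma, and it served as an alternative. Its scale matched log2 intensity, and each array correlated best with its own column (Spearman at least 0.945). Control spots and 118 probes with outlier flags were left out. From the deposited intensity, log2 values were set to a common 75th percentile, a probe was kept if every one of the 3 arrays in some group had it well above background, and each gene took its brightest kept probe. Names came from the RefSeq table of GRCm38.p6: 26384 probes matched by accession, 3974 by symbol, 825 by synonym, and 24380 kept the file's name. The deposited probe coordinates are on mm9.

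Limma 3.58.1 in R 4.3.3 was fitted to all 12 arrays with group and replicate number, and p-values were adjusted by Benjamini-Hochberg over 20469 genes. The labels call the replicates independent experiments, and deviations of same-numbered arrays correlated in all 18 pairs (r from 0.275 to 0.773), so the number was kept as a block. Differently numbered arrays ranged from -0.653 to 0.337, the highest being acute array 2 with recovered array 1, on the same slide. On simulated data for recovered against untreated cells (20469 genes, 200 changed, 50 per size) the fit recovered 22% of changes of 0.5, 68% of 1, 94% of 2 and 98% of 3 on the log2 scale, and 8.44% of its calls were false. In the data 10770 genes were called, far more than the 200 changed here. The same adjusted p cutoff of 0.05 therefore asked for a smaller unadjusted p in the simulation. These rates therefore do not carry over to this comparison. Alternatives changed the block, arrays, background correction, normalization, filter, probe rule and variance prior, and left out arrays. Members and gene lists were chosen with earlier results of these data known. Genes named were the 12 largest rises and falls, up to 3 per list and direction, the 6 with the largest pair SD, 6 opposite in tolerant cells and a panel. Adgre1, Csf1r, Atf4, Phgdh, Il1b, Tlr4, Ebi3 and further list members named in the text fall outside this rule and were chosen after their values were seen. The number of arrays limits the precision.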

Additional observations from a re-analysis of the deposited data

Results flagged for a closer look

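Genes were picked if called in opposite directions in recovered and in tolerant cells, both against untreated cells, and also called between recovered and tolerant cells. The last call was thus part of the selection and is no separate result. Of 20469 genes tested, 225 met all of these conditions. The 6 with the largest difference between recovered and tolerant cells are given with that difference (log2), its SE and the limma adjusted p, n = 3 arrays per group, and both comparisons share the untreated arrays. Fn1, fibronectin, differed by 3.25 (SE 0.36, adjusted p = 0.00022), with 1.71 in recovered and -1.54 in tolerant cells. Gm10419 differed by 3.24 (SE 0.14, adjusted p = 1.59e-05), with 0.51 and -2.73. Cyp4f18, a cytochrome P450, differed by -3.07 (SE 0.18, adjusted p = 1.74e-05), with -0.96 and 2.10. LOC100044439 differed by -3.25 (SE 0.21, adjusted p = 1.89e-05), with -1.09 and 2.16, and its probe overlaps that of Cyp4f18 on mm9, so both measure 1 locus. Spns3 differed by -3.21 (SE 0.18, adjusted p = 1.64e-05), with -1.65 and 1.55, and Zfp819 by -3.09 (SE 0.30, adjusted p = 0.000106), with -2.17 and 0.93. Against untreated cells, the recovered calls of Fn1 and Cyp4f18 were lost without the replicate block, and those of Spns3 and Zfp819 with normexp background correction. That of Gm10419 was lost without untreated array 2, recovered array 1 or recovered array 2, and that of LOC100044439 with only the 6 untreated and recovered arrays and no block.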

How the results depend on the processing

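Without the replicate block, 7246 genes were called between recovered and untreated cells, 418 between recovered and acute and 4213 between recovered and tolerant cells. With only the 6 untreated and recovered arrays and no block, 6465 were called, and without the filter on dim probes 1098 between recovered and acute cells. Leaving out arrays gave 8212 to 10095 calls against untreated, 136 to 2232 against acute and 5118 to 9281 against tolerant cells. The other settings kept these counts within 1.5 times. Of 266 called genes examined singly, 189 stayed called in the same direction under every setting. The sign turned for Ttk with normexp (0.034), for Ndufs3 (-0.14 and -0.052), Actb (-0.034 and 0.00) and Irf8 (-0.11 and -0.14) after quantile normalization and in the authors' values, for Ebi3 with the authors' values (-0.017), for Itgam (0.17), Ifnar1 (0.37) and Cd80 (0.36) with the mean of their probes, for Gapdh without untreated array 3 (0.035) or replicate 3 (0.029), and for Adgre1 without recovered array 3 (0.032) or replicate 3 (0.069). Leaving out other single arrays took Adgre1 as low as -0.22, and the authors' values as low as -0.52. Further calls named in the text were lost for Slc3a2 after quantile normalization, for Vegfa and Cyld with the mean of their probes, for Otud7b with normexp, for Nlrc4 and Cyld without the block, for Trib1, Dcn and Sparc without replicate 1, and for Spi1 without replicate 3. The cause was not tested. Genes near background have only a bound for their fold.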
